A study of Bos taurus and Bubalus kerabau with 6 samples.

Results

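Among the 15429 loci of the deposited transcript catalogue, 468 held isoforms that differed in coding-potential status: at least 1 isoform stood in all 4 coding-potential lists, and at least 1 other isoform was missing from 1 or more of them. A locus is a stretch of the assembly from which 1 or more transcripts, its isoforms, were built, and it is read here from the transcript identifier without its last number. The lists are the deposited columns CNCI, CPAT, CPC and Pfam, in which a cell either repeats the identifier or holds NA. A locus had to have 2 or more listed isoforms, which 2297 loci had, so the 468 were 20.4% of the loci that could have been chosen and 3.03% of all loci. Loci holding an isoform missing from the Pfam list only were set aside by the same rule, which removed 133 of the 601 loci of mixed status. The loci were thus chosen by their values in the 4 lists, so the list values below describe them and test nothing.

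The study compared longissimus, a long back muscle, between 3 swamp buffalo (Bubalus kerabau) and 3 native cattle (Bos taurus), all adults aged 12 months and with no treatment named. Tissue came from a slaughterhouse, and ribosomal RNA was removed before libraries were made. The catalogue has no column for an animal, a species or an expression level, so no difference between cattle and buffalo and no error between animals could be given, and the muscle label could not be checked against marker genes. It also pairs no locus with a gene name, a position or a sequence, and loci are therefore named by their assembly identifiers.

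Long non-coding RNAs are transcripts that are spliced and processed much like messenger RNAs but are not thought to be translated, and in muscle several are known to act in myoblast differentiation and fibre growth. A locus can produce both kinds of RNA, because alternative starts, exons and ends can add or remove an open reading frame. The 4 methods read different properties of a transcript. CNCI scores the usage of adjoining nucleotide triplets along the sequence. CPAT combines the length and coverage of the open reading frame with the Fickett statistic and hexamer usage. CPC weighs the quality of the open reading frame and the similarity of its product to known proteins. The Pfam search looks for known protein domains in the translated transcript. An identifier in such a column usually marks a non-coding call, which the file does not state, so an isoform is described here as listed or missing.

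The 468 loci held 2274 isoforms, or 10.8% of the catalogue's 21069 transcripts. Of these isoforms, 1273 (56.0%) stood in all 4 lists and 1001 (44.0%) were missing from at least 1. Most of the 1001 were missing from a single list (654 isoforms, 65.3%), while 228 were missing from 2 lists and 119 from 3. The commonest shortfall was CPAT alone, with 282 isoforms from 165 loci, followed by CNCI alone with 238 isoforms from 114 loci and CPC alone with 134 from 73. No isoform of these loci could be missing from Pfam alone, because the rule removed such loci. Of the shortfalls of more than 1 list, CPAT with CPC counted 64 isoforms, but 26 of these came from 1 locus, MSTRG.266192, and 38 remained without it. CPC with Pfam counted 50 isoforms, CPAT with CPC and Pfam 48, and CPAT with Pfam 45.

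CPAT split the largest number of loci. It held some isoforms and lacked others in 273 of the 468 loci (58.3%), against 185 for CPC (39.5%), 178 for CNCI (38.0%) and 110 for Pfam (23.5%). The order differs from that of the lists over the whole catalogue, where Pfam lacked the most transcripts (10.4%), then CPC (9.44%), CPAT (8.40%) and CNCI (6.58%). Among the isoforms of the 468 loci, CPAT lacked 23.0%, CPC 17.0%, CNCI 16.6% and Pfam 7.92%. The low Pfam values follow in part from the rule, since among all 2297 loci with 2 or more isoforms Pfam split 275 (12.0%), CPAT 372 (16.2%), CNCI 246 (10.7%) and CPC 237 (10.3%). CPAT thus also split the most loci before any was set aside.

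A single list accounted for the mixed status of 277 loci (59.2%). CPAT alone did so at 134 loci, CNCI alone at 93 and CPC alone at 50. Pfam alone could not do so, because the rule set such loci aside. It was the only list to split 98 of the 133 loci set aside. At the other 191 loci (40.8%) between 2 and 4 lists split the isoforms, with 109 loci split by 2 lists, 77 by 3 and 5 by 4. CNCI was the list most often alone in its splits (52.2% of the loci it split), CPAT was alone in 49.1% of its loci and CPC in 27.0%. Among the 14 combinations that occurred, the commonest with more than 1 list were CPAT with CPC and Pfam (30 loci), CNCI with CPAT and CPC (29), CPAT with Pfam (27) and CPC with Pfam (26). CNCI with Pfam was the rarest, at 4 loci.

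**Figure D1:**
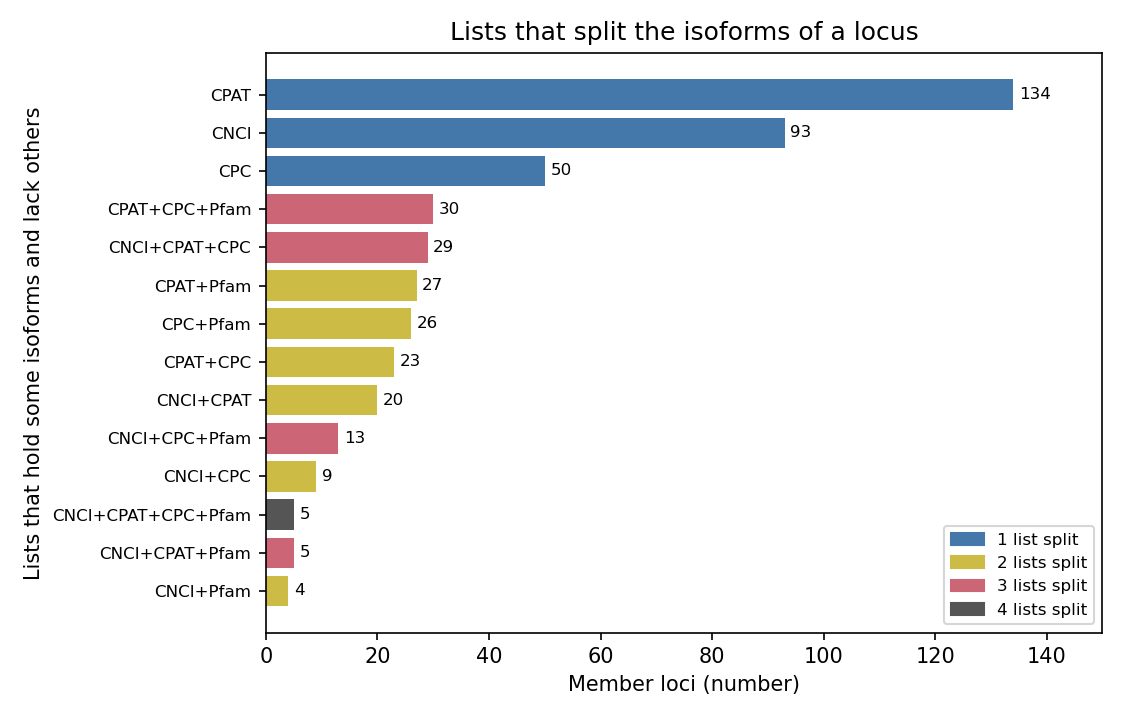
Number of member loci (x axis) for each of the 14 combinations of lists that held some isoforms of a locus and lacked others (y axis), coloured by how many lists split the locus. CPAT alone (134 loci), CNCI alone (93) and CPC alone (50) lead, and every combination of 2 or more lists has 30 loci or fewer. Pfam alone is absent because the rule set such loci aside.

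Where 2 lists split the same locus, CPC and Pfam lacked exactly the same isoforms most often and CNCI and CPAT least often. At a locus with 2 isoforms any lists that split it must lack the same isoform, so those loci are left out of the shares that follow. CPC and Pfam lacked the same isoforms in 31 of the 49 loci with 3 or more isoforms that they both split (63.3%). CPAT and Pfam did so in 26 of 43 (60.5%), and CNCI and Pfam in 10 of 19 (52.6%). For the pairs without Pfam the share was under 50%: CPAT and CPC lacked the same isoforms in 25 of 60 loci (41.7%), and CNCI and CPC in 16 of 40 (40.0%). CNCI and CPAT did so in 9 of 42 (21.4%), and in 15 of these 42 (35.7%) no isoform was missing from both. No isoform was missing from both CPC and Pfam in 1 of their 49 loci. An isoform missing from Pfam was by the rule missing from another list too, which raises the overlap of Pfam with the others. With the loci of 2 isoforms included, the shares ran from 44.1% for CNCI and CPAT to 75.7% for CPC and Pfam.

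Within a locus the isoforms that fell short mostly fell short in the same way. In 396 loci (84.6%) all partly listed isoforms were missing from the same list or lists. In 54 loci there were 2 kinds of shortfall, and in 18 loci there were 3 or more, up to 5. A locus with 1 partly listed isoform has 1 kind by construction, and 298 of the 468 loci (63.7%) were of that sort. Of the 170 loci with 2 or more such isoforms, 98 (57.6%) had 1 kind.

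The loci ranged from 2 to 39 listed isoforms, with a median of 3. With 2 isoforms there were 176 loci, with 3 there were 89, with 4 or 5 there were 93, with 6 to 9 there were 58 and with 10 or more there were 52. The 52 largest loci held 827 isoforms, 36.4% of the total. The share of loci of a given size that were mixed and kept by the rule rose with size. It went from 13.4% of the 1312 loci with 2 isoforms to 22.2% with 3 and 29.2% with 4 or 5. It was 34.9% with 6 to 9 and 52.0% of the 100 loci with 10 or more. Mixed loci that the rule set aside are not in these shares, and they numbered 47 with 2 isoforms and 21 with 10 or more. A locus with more isoforms has more that can differ, and the rise was not set against what this alone would give. The mean number of isoforms was 4.86 at the mixed loci kept by the rule and 5.38 at those set aside. It was 2.87 at the 1360 loci whose isoforms all stood in the 4 lists and 3.09 at the 336 loci where none did.

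On average 54.2% of the isoforms of a locus stood in all 4 lists. It is fixed at 50.0% for loci with 2 isoforms, and it was 55.4% with 3, 54.0% with 4 or 5, 58.8% with 6 to 9 and 61.4% with 10 or more. Of the 292 loci with 3 or more isoforms, 178 (61.0%) had most of them in all 4 lists, 96 (32.9%) had fewer and 18 were split evenly. Just 1 isoform fell short in 122 of the 292, and just 1 stood in all 4 lists in 59. The share ran from 5.13% at MSTRG.266192 to 94.4% at MSTRG.274711.

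**Figure D2:**
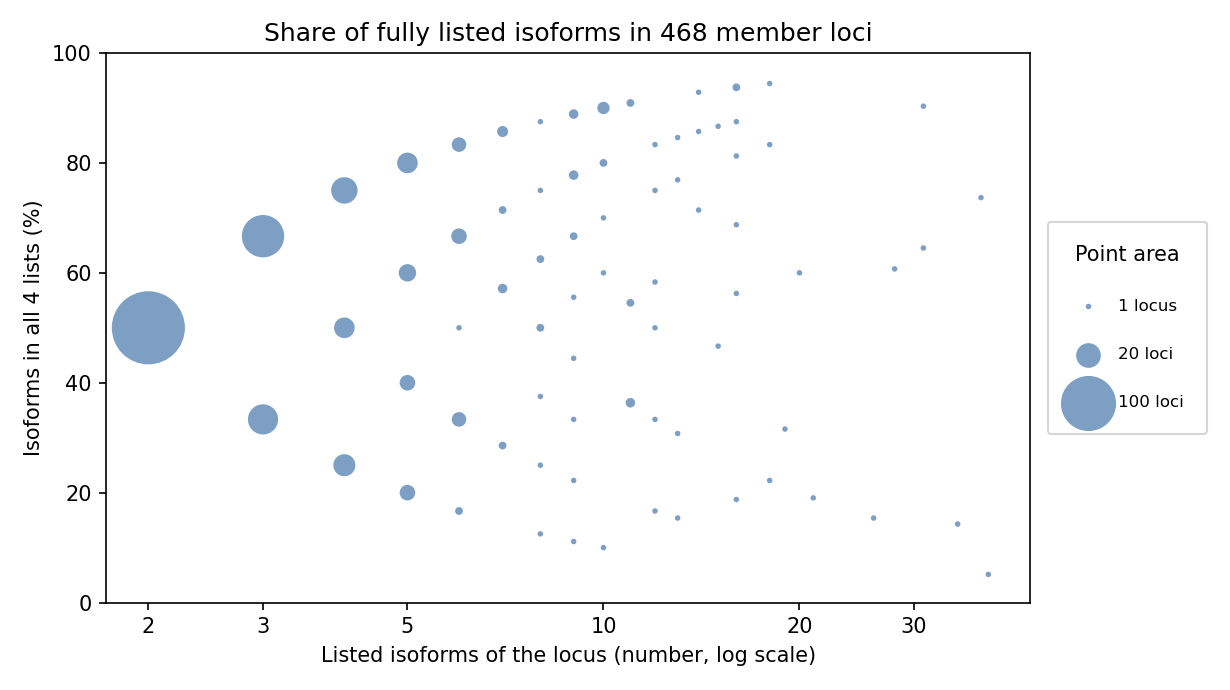
Percentage of a locus's isoforms in all 4 lists (y axis) against its number of listed isoforms (x axis, log scale), where the area of a point gives the number of loci at that place. All 176 loci with 2 isoforms lie at 50% by the rule, and among the larger loci the points reach from 5.13% to 94.4%.

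How often each list split a locus changed with its size. CPAT split 54.5% of the loci with 2 isoforms and 67.3% of those with 10 or more. CNCI split 38.6% and 48.1% of the same classes, with a low of 25.8% at 3 isoforms. CPC split 35.8% and 51.9%, and Pfam 24.4% and 23.1%. Of the 4 lists only Pfam split no larger a share of the loci with 10 or more isoforms than of those with 2. The rule bears on these Pfam shares, since it set aside 47 loci with 2 isoforms and 21 with 10 or more, which are not counted here. More than 1 list split 59.6% of the loci with 10 or more isoforms, against 40.3% of those with 2. The classes between lay lower, at 36.0% with 3 isoforms, 38.7% with 4 or 5 and 36.2% with 6 to 9. None of these shares was set against what a larger number of isoforms alone would give.

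The 176 loci with 2 isoforms are the simplest pairs, in which 1 isoform stood in all 4 lists and its partner did not. The partner was missing from 1 list in 105 loci (59.7%), from 2 lists in 48 and from 3 in 23. CPAT alone separated 45 pairs, CNCI alone 43 and CPC alone 17. Beside these, 874 of the 1312 loci with 2 isoforms had both in all 4 lists, 215 had neither, and 47 were set aside because the partner was missing from Pfam only.

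Of the 12 loci with most isoforms (ties taken by lower locus number), those with under 50% of their isoforms in all 4 lists were missing mainly from CPAT or CNCI. MSTRG.266192 had 39 isoforms, of which 2, numbers 24 and 32, stood in all 4 lists. CPAT lacked the other 37, and CPC lacked 26 of those same 37, so every isoform missing from CPC was also missing from CPAT. MSTRG.199026 had 35 isoforms with 5 in all 4 lists, namely number 11 and numbers 32 to 35. CNCI lacked all of numbers 1 to 30 except 11, and of these 29 isoforms CPAT lacked 15 too. The last isoform that fell short there, number 31, was missing from CPAT alone.

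MSTRG.199025, whose identifier comes just before that of MSTRG.199026, was also largely missing from CNCI. It had 26 isoforms, of which CNCI lacked 20, CPAT 2 and CPC 2, and 4 stood in all 4 lists. With 5 kinds of shortfall it was the most varied locus of all. CNCI also lacked most isoforms of MSTRG.273097 (16 of 21), MSTRG.246079 (13 of 18) and MSTRG.99515 (11 of 19). At MSTRG.273097 CPC lacked 10, and 9 of these were missing from CNCI too. CPAT lacked 9 isoforms of MSTRG.99515, of which 7 were missing from CNCI too. At all 3 loci, and at MSTRG.199026, the highest-numbered isoform stood in all 4 lists. At MSTRG.199025 and MSTRG.266192 it did not.

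The others of the 12 largest loci had 60% or more of their isoforms in all 4 lists, and their shortfalls were of different kinds. At MSTRG.246074, with 38 isoforms, CNCI lacked 7 scattered between numbers 5 and 30, while CPC lacked numbers 36, 37 and 38, so the 2 lists had no missing isoform in common. At MSTRG.226887, with 31 isoforms, CNCI lacked 11 of the first 13, and numbers 14 to 31 all stood in all 4 lists. MSTRG.1538 was split by CPC alone, which lacked 11 of 28 isoforms, among them the runs 15 to 18 and 22 to 26. MSTRG.215820 had 31 isoforms and 3 that fell short, each in a different way. MSTRG.274711 had a single such isoform among 18, number 4, which CPC and Pfam both lacked.

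MSTRG.245728 was the largest of the 5 loci that all 4 lists split. Of its 20 isoforms 12 stood in all 4 lists. The 8 others, numbered between 2 and 10, were all missing from both CPC and Pfam, and 2 of them were missing from CPAT too and 1 from CNCI. From number 11 upwards every listed isoform stood in all 4 lists.

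For each remaining combination the locus with most isoforms is described, and of loci tied for most the one with the lowest number. MSTRG.6221, 1 of 3 loci with 16 isoforms that CNCI alone split, had 7 missing from that list. MSTRG.134562, 1 of 2 loci with 16 isoforms that CPAT alone split, had only number 12 missing. MSTRG.101474, 1 of 2 loci with 15 isoforms split by CPAT and Pfam, had 8 missing from CPAT, and 1 of these was missing from Pfam too. MSTRG.275077 had 18, of which CPAT lacked 3, and 1 of these was missing from CPC and Pfam too. At MSTRG.54771 CPC lacked isoforms 1 to 8 and number 9 alone stood in all 4 lists, while Pfam lacked 3 of the 8 and CNCI 1. MSTRG.63078 and MSTRG.76466, each tied with 2 other loci of its combination, had 5 and 3 listed isoforms with numbers up to 17 and 19, and at each the 1 isoform that fell short was number 15.

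**Figure D3:**
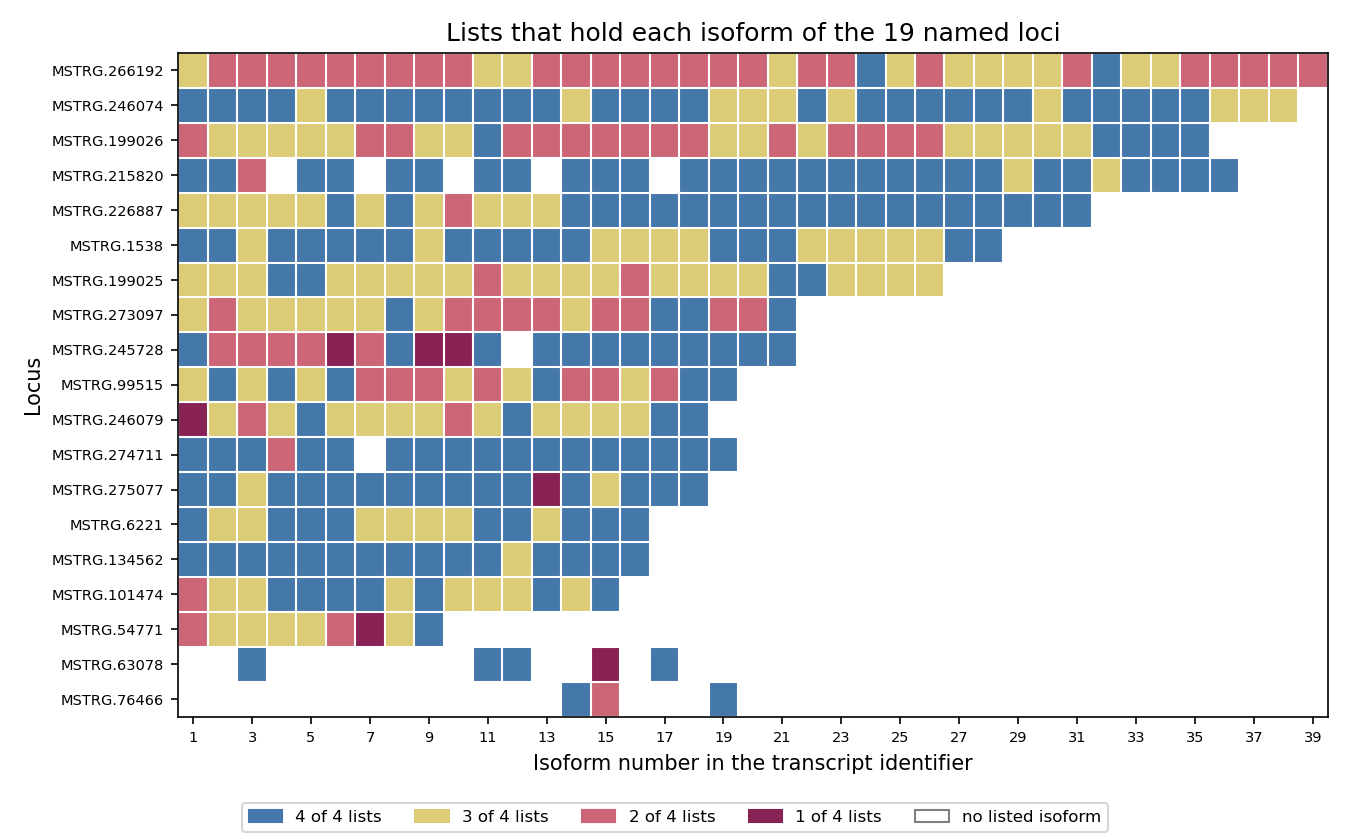
Each of the 19 named loci is a row and each isoform number a column (x axis), with the colour giving how many of the 4 lists hold that isoform and white marking numbers with no listed isoform. MSTRG.226887 is fully listed from number 14 on and MSTRG.245728 from 11 on, while MSTRG.266192 has 2 fully listed isoforms among 39.

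The lowest-numbered isoform of a locus stood in all 4 lists less often than the highest-numbered one. The number is the last part of the identifier, and the rule did not use it. In 189 of the 468 loci (40.4%) the lowest-numbered listed isoform stood in all 4 lists, and in 310 (66.2%) the highest-numbered one did. The 2 ends of the numbering differed in 351 loci, and in 236 of these (67.2%) it was the highest-numbered isoform that was fully listed, against 115 with the lowest. Among the loci with 2 isoforms the second of the pair was the fully listed one in 110 of 176 (62.5%). In the 133 loci that were set aside, the lowest-numbered isoform was fully listed in 55 (41.4%) and the highest-numbered in 86 (64.7%). What the numbers follow in the assembly (position, length or abundance) is not given in the sources used here, and their relation to the length of the isoforms was not tested.

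The same direction was seen for each list over the loci that it split. CPAT held the lowest-numbered isoform in 42.1% of its 273 loci and the highest-numbered in 69.2%. For CPC these shares were 41.6% and 67.0% of 185 loci, and for Pfam 43.6% and 71.8% of 110 loci. The gap was smallest for CNCI, at 51.7% and 68.0% of 178 loci. Many of these loci are shared between lists, so the 4 results are not independent. In loci with 10 or more isoforms the ends differed less, with the lowest-numbered fully listed in 31 of 52 and the highest-numbered in 35.

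**Figure D4:**
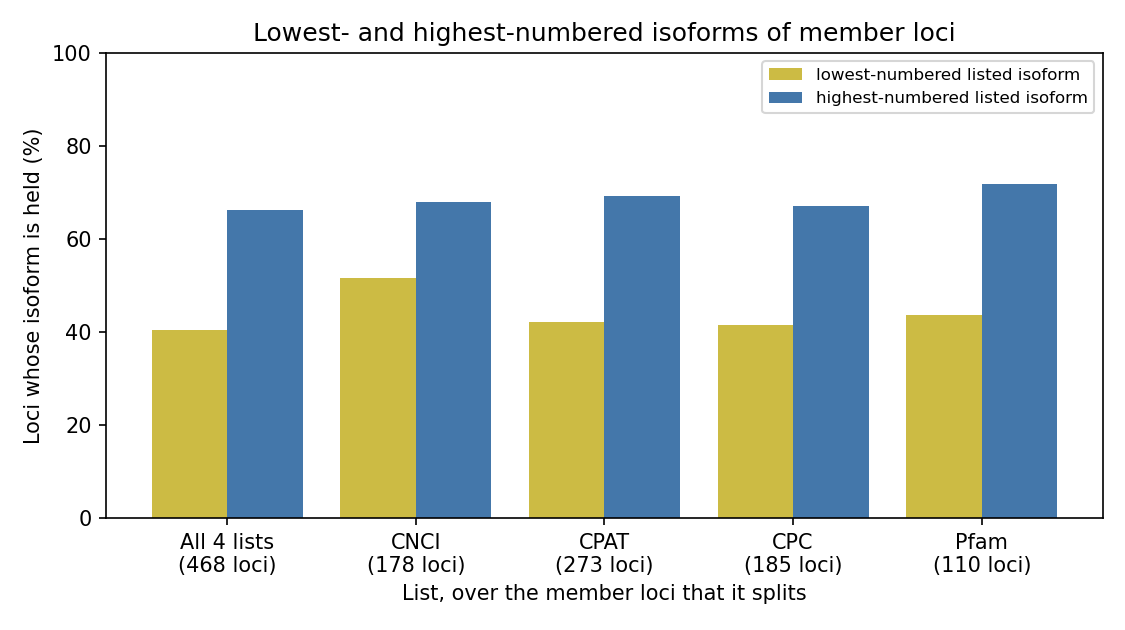
Percentage of loci (y axis) in which the lowest-numbered or the highest-numbered listed isoform is held by all 4 lists (first pair of bars, 468 loci) or by the named list (other pairs, over the loci that list splits). The highest-numbered isoform is held more often in every pair, with 66.2% against 40.4% for all 4 lists and the smallest gap for CNCI.

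By number, 149 of the 355 isoforms numbered 1 (42.0%) stood in all 4 lists. The share was 54.8% of the 363 isoforms numbered 2, 57.6% of the 250 numbered 3, 62.1% of the 182 numbered 4 and 65.4% of the 159 numbered 5. Beyond that it varied without a clear direction, between 51.0% and 65.1% for numbers 6 to 10, and it was 59.1% of the 508 isoforms numbered above 10. CPAT showed the widest range over the first 5 numbers, holding 67.3% of isoforms numbered 1 and 84.1% of those numbered 4. Pfam showed little, between 90.4% and 92.3% over the same numbers. It lacked only 7.92% of the isoforms of the 468 loci, in part by the rule, so this share had little room to vary. Over the 110 loci that Pfam split, its ends differed, at 43.6% and 71.8% as given above. Loci of different sizes contribute to each number. In the loci with 10 or more isoforms the share was 62.2% at number 1, 48.9% at 2, 57.8% at 3, 66.7% at 4 and 61.7% at 5. It was 45.7% at number 10.

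Along the numbering, status often changed more than once. Of the 203 loci with 4 or more isoforms, 65 (32.0%) changed once between fully and partly listed as the number rose, 69 changed back once, and 69 changed 3 times or more. The median was 2 changes, and the most was 11, at MSTRG.246074. Loci with 1 unbroken block of each status were therefore the smaller part of the loci with 4 or more isoforms. Of the 89 loci with 3 isoforms, 68 (76.4%) had such blocks. More isoforms leave room for more changes, and the shares were not set against what this alone would give.

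Many of these loci had isoform numbers that the catalogue does not hold, and why a number is absent was not tested. A number was skipped below the highest listed one in 172 of the 468 loci (36.8%), with a median of 4 numbers skipped where any was, and isoform 1 was itself unlisted in 113. Numbers were skipped in 21.5% of the 1360 loci with all isoforms fully listed and in 35.7% of the 336 loci with none. Of the 133 mixed loci set aside, 62 (46.6%) skipped numbers. By size, the share at the 468 loci was 33.0% with 2 isoforms, 39.3% with 3 and 36.6% with 4 or 5. With 6 to 9 isoforms it was 41.4%, and with 10 or more it was 40.4%. At loci with all isoforms fully listed it was 19.9%, 21.0%, 26.6%, 27.0% and 36.8% in the same order, lower in each class, with 19 such loci in the largest. At loci with none fully listed it was 31.2%, 42.6%, 48.4%, 50.0% and 25.0%, where the last 2 classes held 14 and 8 loci. No test of these differences was made, since loci are not replicates of the animals.

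The 468 loci were spread over the whole range of locus numbers, from 1058 to 282374. When the numbers of the whole catalogue were divided into 5 equal ranges, from low to high, they made up 18.3%, 19.3%, 20.3%, 23.0% and 20.6% of the loci with 2 or more isoforms. Consecutive numbers were held by 7 pairs of the 468 loci and by no run of 3. Thus 2.99% of the 468 had another of the 468 at the next or previous number. Among all 2297 loci with 2 or more isoforms there were 117 such pairs and 21 runs of 3, and 9.27% had a neighbour of that kind. The smaller set leaves fewer numbers that can be consecutive. Counted against all loci with 2 or more isoforms, 44 of the 468 (9.40%) had a neighbour, close to the 9.27%. Chosen after its values were seen, the pair with most isoforms was MSTRG.199025 and MSTRG.199026, both largely missing from CNCI. Another such pair, MSTRG.21565 and MSTRG.21566, differed in status: 2 of 12 isoforms stood in all 4 lists at the first and 14 of 16 at the second. Whether consecutive numbers mean neighbouring positions in the genome is not given in the sources used here.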

How the data were processed

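RNA-seq was made from longissimus muscle of 3 cattle and 3 buffalo, grouped by sample title. Reads were handled with TopHat2 2.0.14, Cufflinks and Trim Galore, per the submitters' processing notes. The genome build, the versions of the coding-potential tools and the pooling of libraries were not given in the sources used here. The authors' deposited transcript table holds identifiers or NA rather than a measured unit, which was checked for every cell, and it was counted as deposited. The deposited table of scored gene pairs cannot be joined to the loci and was not used here.

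Loci were classified with pandas 2.3.3 in Python 3.11.15, and the classification was tested on simulated data. Named are the 12 member loci with most isoforms and the member with most isoforms for each of the 14 combinations of lists, 19 loci in all. Ties went to the lower locus number: 3 loci with 18 isoforms tied for the last 2 of the 12 places, and MSTRG.275077 was named only for its combination. Runs of 3 consecutive locus numbers would also have been named. The members, the lists and this rule were chosen with earlier results of these data known. The alternatives were a changed minimum of isoforms, lists left out, a looser status and the loci set aside put back. Values are complete counts of 1 table, so they carry no sampling error and no n of animals, and no test was run. The read depth is unknown, and it limits which isoforms could be assembled.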

Additional observations from a re-analysis of the deposited data

How the results depend on the processing

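No paired analysis was possible because the table has no column for an animal or a replicate. The 468 loci became 601 with the loci set aside put back, 227 when 3 of the 4 lists sufficed, 292 with a minimum of 3 isoforms and 203 with a minimum of 4. Leaving out CPAT gave 317 loci, leaving out CNCI 374 and leaving out CPC 409. With a minimum of 3 isoforms, CPAT split 177 loci, CPC 122, CNCI 110 and Pfam 67, the same order as before. With the loci set aside put back, Pfam split 243 loci in place of 110 and ranked second after CPAT with 301, so its last place follows from the rule. The share of loci whose lowest-numbered isoform was fully listed, 40.4%, was 42.2% without loci that skip numbers. It was 37.5% with 2 isoforms and 40.6% with the loci set aside put back, and these last 2 settings were chosen after seeing the data. Where the ends differed, the share with only the highest-numbered isoform fully listed was 67.2%, and it ran from 62.5% to 67.0% over 3 settings, all chosen after seeing the data. Depth limits every count, since rare isoforms may not have been assembled.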
